A study of Rattus norvegicus with 13 samples.

Results

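Birc2, Birc3, Birc6, Naip5, Cflar and Bfar were grouped as inhibitors of apoptosis and Cflar, by name rather than by a shared effect on cell death. Their expression was followed in coronary arteries of old and young rats. They were chosen by gene symbol, as the probes that the platform annotation names with these symbols, and make up 6 of the 96 gene probes of an apoptosis array. The rats were of the F344 strain, an inbred line used in research on ageing, and total RNA was taken from their septal coronary arteries. The aged group held 6 arrays from rats of 26 months and the young group 7 arrays from rats of 3 months, with no treatment or genetic change named in the labels. The labels add that endothelial apoptosis was raised in the aged vessels, by TUNEL and DNA fragmentation assays. Whether the arrays come from different rats is not said, and the p-values cover no more than the variation from array to array, which may be technical.

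Inhibitor of apoptosis proteins carry BIR domains, which in some members bind caspases, the proteases that carry out cell death. Birc2 and Birc3 (cIAP1 and cIAP2) are ubiquitin ligases recruited through TRAF2 to the TNF receptor, where they favour survival signalling over death. Cflar (c-FLIP) is a caspase-8 relative without protease activity that competes for the death receptor adaptor Fadd. In endothelium, such proteins are known to set how a cell responds to TNF.

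Each value is a signal divided by the mean beta-actin signal of its array, rounded to 2 decimals, and a blank cell was counted as non-detection. A shared denominator means that an error in beta-actin moves all genes of an array together. The mean of the 15 gene probes with a value on every array, none of them among these 6 genes, served as the level of an array. It ran from -0.67 to 0.15 on the log2 scale in the aged and from -2.50 to 0.12 in the young arrays, with young replicates 1 and 2 lowest. None of 23 marker genes of endothelium, smooth muscle, cardiomyocytes, fibroblasts and leukocytes was on the array (0 of 23), so the labelled tissue could not be checked. In such tissue RNA, fewer cells of a type and less RNA per cell cannot be told apart. Array number and rounding limit the precision, and signal over background is unknown.

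None of the 6 genes passed the age comparison. Birc3, Naip5 and Cflar had mean log2 ratios that put the young arteries 2.01-fold, 1.91-fold and 1.98-fold above the aged ones. Birc2 and Birc6 differed by 0.37 and 0.25 on the log2 scale, with the aged arteries higher, and Bfar by 0.05. By limma, 0 of 6 genes had an adjusted p under 0.05, and 0 of 6 had an unadjusted p under 0.05. An exact permutation test over the arrays likewise gave 0 of 6, adjusted or not. Over all 70 gene probes tested, limma called 1.43% in either direction, and 5.71% had an unadjusted p under 0.05. In none of the 6 genes did the age groups stand apart (0 of 6), against 2.86% of the 70 probes. All 6 had the 3 values per group that the test required.

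**Figure D1:**
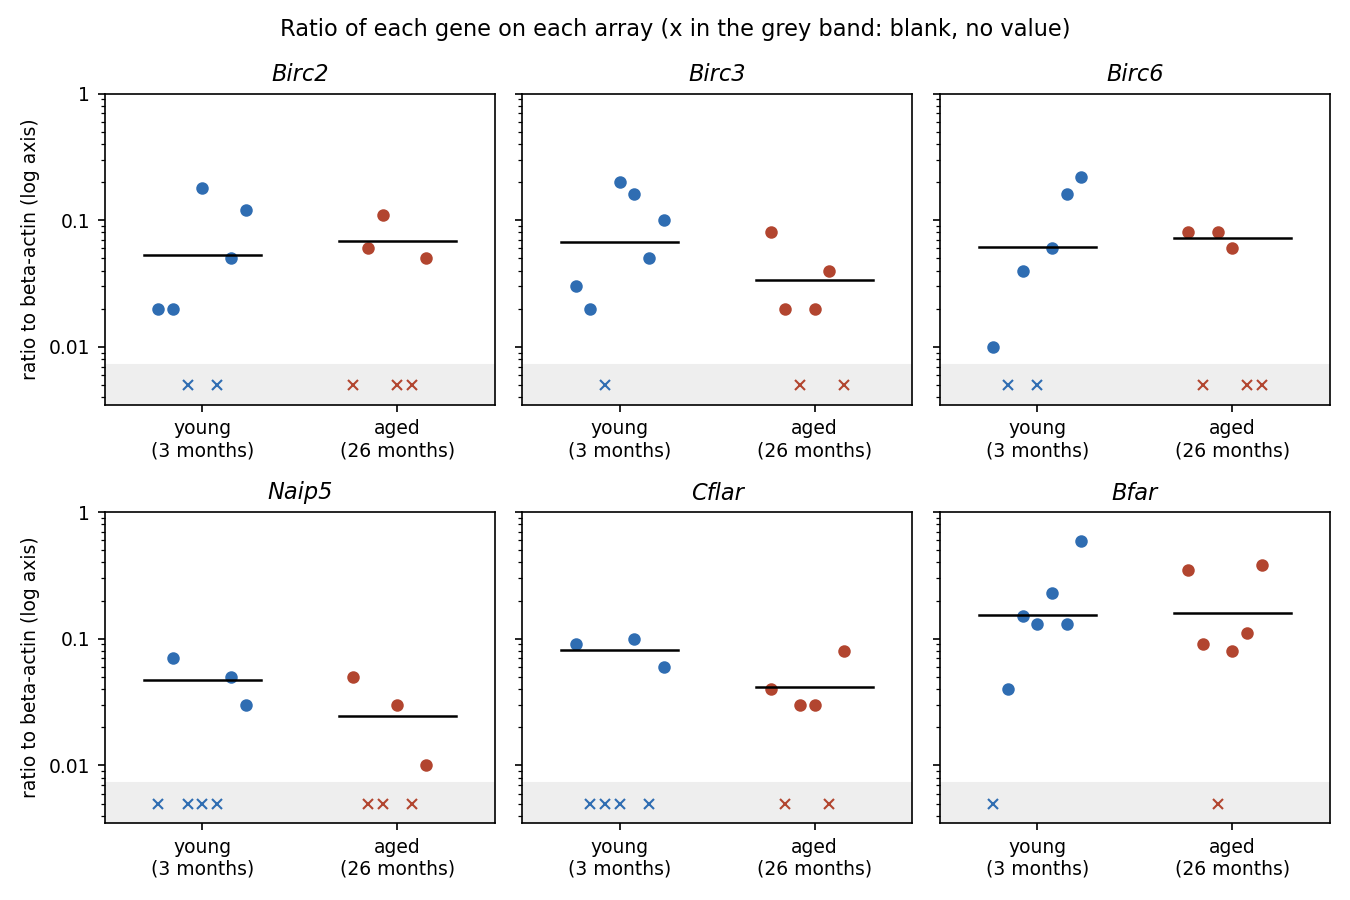
Ratio to beta-actin (log axis) of the 6 genes on 7 young and 6 aged arrays. Points are arrays, crosses in the grey band are blank arrays, and black lines are geometric means of the measured arrays; the age groups overlap for every gene shown.

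Birc2 was measured on 3 aged and 5 young arrays. The aged ratios were 0.06, 0.11 and 0.05 on replicates 2, 3 and 6. The young ratios were 0.02, 0.02, 0.18, 0.05 and 0.12 on replicates 1, 2, 4, 6 and 7. The aged values lay inside the young range, whose ends were 9 times apart. The means were 0.0733 ± 0.0321 (SD, n = 3) and 0.078 ± 0.070 (SD, n = 5), so the linear mean was slightly lower in aged arteries while the log2 mean was higher. The log2 difference was 0.37 (SE 0.78, 95% interval -1.26 to 2.01, adjusted p = 0.96 by limma). It was 0.02 without young replicate 1 or without young replicate 2, 0.04 without aged replicate 3, and 0.81 without young replicate 4.

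Birc3, the relative and chromosomal neighbour of Birc2, was measured on 4 aged and 6 young arrays. The aged ratios were 0.08, 0.02, 0.02 and 0.04 on replicates 1, 2, 4 and 5. The young ratios were 0.03, 0.02, 0.2, 0.16, 0.05 and 0.1 on replicates 1, 2, 4, 5, 6 and 7. The young replicates 4, 5 and 7 lay above every aged array, and the young arrays of lowest level, replicates 1 and 2, were as dim as the aged ones. The aged mean was 0.040 ± 0.028 (SD, n = 4) and the young mean 0.0933 ± 0.0737 (SD, n = 6), a log2 difference of -1.01 (SE 0.69, 95% interval -2.45 to 0.43, adjusted p = 0.72 by limma). The difference was -0.70 without young replicate 4, -0.76 without young replicate 5, and -1.74 without both young replicates 1 and 2, and none of these passed. The last, chosen after seeing the data, had a 95% interval of -3.09 to -0.39 (unadjusted p = 0.015, adjusted p = 0.46 by limma).

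The probes of Birc2 and Birc3 need care as to which gene they report. The RefSeq gene table of the rat used here lists Birc2 among the synonyms of Birc3. They lie next to each other in the rat genome, with 0 protein-coding genes between them. All 6 symbols occurred in the table, but 0 of the 6 gene IDs and 0 of the 6 accessions of the annotation did. The organism for which the probes were designed is therefore not settled, which bears on the levels and blanks of all 6 genes. Probe sequences were not used here, and neither the match of the probes to rat transcripts nor cross-hybridization between Birc2 and Birc3 was tested.

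Birc6 (Apollon or BRUCE), a very large protein that joins a BIR domain to a ubiquitin-conjugating domain, was measured on 3 aged and 5 young arrays. Its aged ratios were close together at 0.08, 0.08 and 0.06 on replicates 1, 3 and 4. The young ratios spread over a 22-fold range, at 0.01, 0.04, 0.06, 0.16 and 0.22 on replicates 1, 3, 5, 6 and 7. The aged values thus sat in the middle of the young ones. Means were 0.0733 ± 0.0115 (SD, n = 3) and 0.098 ± 0.088 (SD, n = 5), and the log2 difference was 0.25 (SE 0.84, 95% interval -1.50 to 2.01, adjusted p = 0.96 by limma). The sign rested on young replicate 1, whose ratio was the smallest deposited: without it the difference was -0.40, while it was 0.72 without young replicate 7, 0.60 without young replicate 6, 0.39 without aged replicate 4, and 0.10 without young replicate 3.

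Naip5, known best as a sensor of bacterial flagellin in the NLRC4 inflammasome, was the member with the most blanks, with 3 values in each group. Aged replicates 1, 4 and 6 had 0.05, 0.03 and 0.01, and young replicates 2, 6 and 7 had 0.07, 0.05 and 0.03. The groups shared the values 0.03 and 0.05. Means were 0.03 ± 0.02 and 0.05 ± 0.02 (SD, n = 3 each), a log2 difference of -0.94 (SE 0.80, 95% interval -2.61 to 0.74, adjusted p = 0.86 by limma). Without aged replicate 6, at a ratio of 0.01, the difference was -0.28, without aged replicate 1 it was -1.45, and without young replicate 2 it was -0.65. With 3 values against 3, an exact two-sided permutation test cannot go below 0.1, and it gave 0.5.

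Cflar was measured on 4 aged and 3 young arrays. The aged ratios were 0.04, 0.03, 0.03 and 0.08 on replicates 1, 3, 4 and 6, and the young ratios were 0.09, 0.1 and 0.06 on replicates 1, 5 and 7. Of the 4 aged values, 3 lay below every young one, and aged replicate 6 lay among them. The aged mean was 0.045 ± 0.024 (SD, n = 4) and the young mean 0.0833 ± 0.0208 (SD, n = 3), which gave a log2 difference of -0.98 (SE 0.68, 95% interval -2.41 to 0.45, adjusted p = 0.72 by limma). The exact permutation test gave p = 0.086 (two-sided, smallest possible 0.029) and an adjusted p of 0.61. The blanks ran against these levels, because Cflar had a value on 66.7% of aged and 42.9% of young arrays. With blanks at 0.01, the smallest deposited ratio, the direction turned to 0.065.

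Bfar, a membrane protein of the endoplasmic reticulum described as a scaffold between Bcl-2 proteins and caspase-8, had the fewest blanks and the ratios least touched by rounding. The aged ratios were 0.35, 0.09, 0.08, 0.11 and 0.38 on replicates 1, 2, 4, 5 and 6. The young ratios were 0.04, 0.15, 0.13, 0.23, 0.13 and 0.59 on replicates 2 to 7. Both groups held arrays around 0.1 and a few well above. Means were 0.202 ± 0.150 (SD, n = 5) and 0.212 ± 0.195 (SD, n = 6), a log2 difference of 0.05 (SE 0.65, 95% interval -1.30 to 1.40, adjusted p = 0.98 by limma). This interval still allows a change of more than a factor of 2 in either direction, so equal expression is not shown. The difference ran from -0.34 without young replicate 2 to 0.44 without young replicate 7, and its sign also turned without aged replicate 1 (-0.23), aged replicate 6 (-0.26), and young replicate 4 or 6 (-0.0014 each).

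The direction of Birc2, Birc6 and Bfar did not hold under every scaling of the arrays, while that of Birc3, Naip5 and Cflar did. As deposited, the difference was above 0 for 3 and below 0 for 3, with a median of -0.44, against 57.1% above 0 (40 of 70 probes) and a median of 0.06 over all tested probes. With each array centred on Actb, Gapdh and Rpl13a, 2 of 6 were higher, with a median of -0.67, against -0.19 and 29 of 70 higher over all probes. With centring on the 15 probes measured everywhere, 0 of 6 were higher, with a median of -0.97, against -0.69 and 13 of 70 higher over all probes. Young replicates 1 to 4 had a lower level than every aged array (-1.02 or less, against -0.67 or more). Subtracting this level therefore tends to lower aged values against young ones. It also removes any age difference that the 15 probes share, so array and age cannot be told apart in it. Under this centring Birc3 stood at -1.68 (adjusted p = 0.18 by limma) and Cflar at -1.69 (adjusted p = 0.31 by limma). Over all probes, 0 of 70 passed there. Over the alternatives, adjusted p ran from 0.18 to 0.92 for Birc3 and from 0.31 to 0.99 for Cflar. Birc3, Naip5 and Cflar stayed below 0 under each scaling tried, at -0.88, -0.36 and -0.36 with median centring and -0.79, -0.53 and -0.51 with quantile normalization. Birc2 and Birc6 turned only with the 15-probe centring among the scalings, to -0.59 and -0.26, and Bfar turned with that (-0.49) and with reference centring (-0.20).

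**Figure D2:**
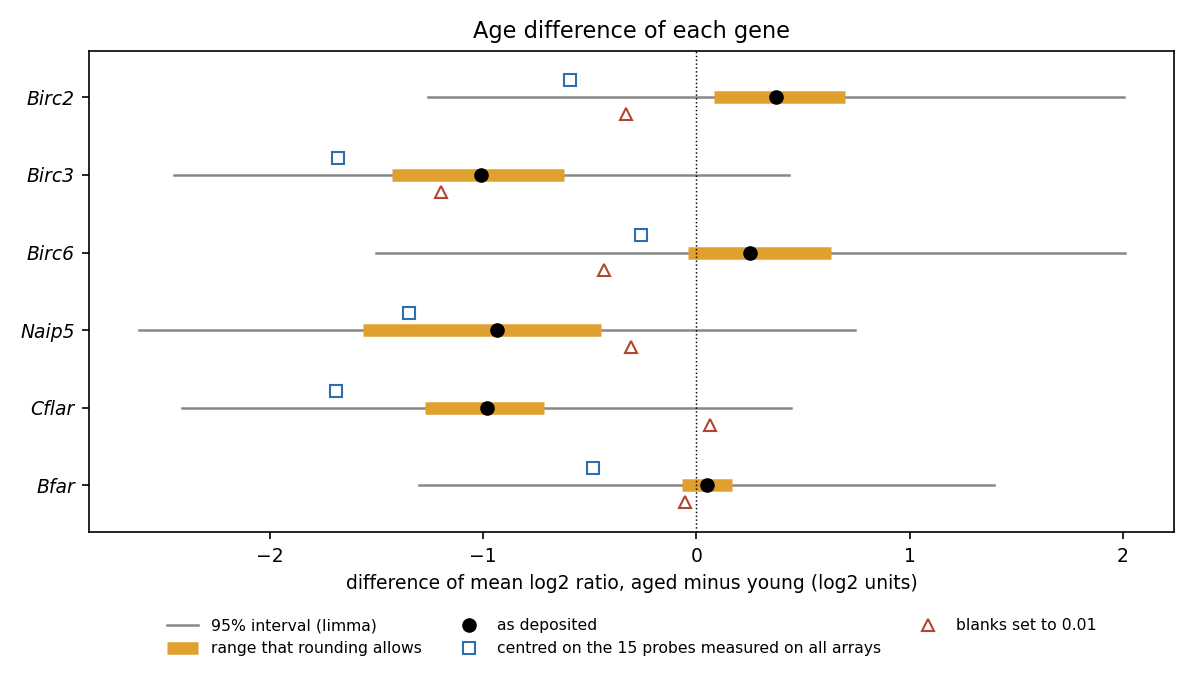
Difference of mean log2 ratio, aged minus young (log2 units), for the 6 genes. Grey lines are 95% intervals and black points the values, both as deposited. Gold bars are the range that rounding to 2 decimals allows. Squares are values centred on the 15 probes measured on all arrays, and triangles values with blanks at 0.01. Every 95% interval drawn crosses 0, and those of the squares and triangles are not drawn.

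Rounding took a large share of these dim ratios. Of the 50 measured values of the 6 genes, 21 were at most 0.05 (42%), against 25.6% of the 691 values of the 70 tested probes. The largest error of rounding, 0.005, amounted to 13.3% of the ratio at the median Naip5 array, 11.3% for Birc3, 9.17% for Birc2, 8.33% for Cflar, 7.29% for Birc6 and 3.85% for Bfar, with a median of 6.16% over the tested probes. With every aged value at one edge of its step and every young value at the other, the log2 difference could lie from -1.56 to -0.45 for Naip5 and from -1.43 to -0.62 for Birc3. The same bounds were -1.27 to -0.71 for Cflar, 0.08 to 0.70 for Birc2, -0.04 to 0.63 for Birc6 and -0.07 to 0.17 for Bfar. Rounding alone could therefore turn the sign of Birc6 and Bfar, 2 of 6, as for 20 of the 70 tested probes. These ranges covered between 8.85% (Bfar) and 33.2% (Naip5) of the width of the 95% interval, so the spread between arrays was the wider limit for each gene.

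Detection did not separate the age groups. The 6 genes were blank in 28 of 78 cells (35.9%), close to the 34.1% of all gene probes. Blanks were 14 of 36 in aged (38.9%) and 14 of 42 in young arteries (33.3%), against 30.7% and 37.1% over all gene probes. By gene, a value was present on 3 of 6 aged and 5 of 7 young arrays for Birc2, and likewise for Birc6. The counts were 4 and 6 for Birc3, 3 and 3 for Naip5, 4 and 3 for Cflar, and 5 and 6 for Bfar. Fisher's exact test (two-sided) gave 0 of 6 genes under 0.05, adjusted or not, with raw p-values from 0.56 to 1 and adjusted p-values of 1. Over the 96 gene probes, 0% passed after adjustment and 2.08% had an unadjusted p under 0.05.

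Arrays differed in how many of the 6 genes they showed. Young replicate 7 was the array with a value for all 6, and its level was also the highest among the young arrays. Aged replicates 1 and 4 and young replicate 6 had 5, while aged replicate 5 and young replicate 3 had 2. Aged replicate 5 was not a sparse array, with values for 67 of the other 90 gene probes. Across the 13 arrays the number of these genes detected and that of the other probes had r = 0.460 (permutation p = 0.12) and rho = 0.471 (permutation p = 0.11). Without aged replicate 4 and young replicate 7 r was 0.105, so the relation rested on those arrays. Within the groups r was 0.483 (aged, n = 6) and 0.673 (young, n = 7).

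Co-variation could be followed for 7 of the 15 gene pairs, those with at least 6 arrays in common. No pair passed (0 of 7 by Pearson and 0 of 7 by Spearman, Benjamini-Hochberg over 7), while 2 had an unadjusted Pearson p and 1 an unadjusted Spearman p under 0.05. Birc3 and Bfar, which share 9 arrays, had r = 0.683 (exact permutation p = 0.042, adjusted p = 0.15) and rho = 0.800 (exact permutation p = 0.014, adjusted p = 0.095). Without the 2 arrays of highest Birc3 ratio, young replicates 4 and 5, r was 0.929 over 7 arrays. In young replicate 4 the 2 genes parted, with Birc3 at its highest young ratio, 0.2, and Bfar at 0.13. Centring on the 15 probes left r at 0.674 (exact permutation p = 0.050, adjusted p = 0.18). The call depended on which array was left out and on how many pairs then remained. By Pearson the pair passed without young replicate 4 (r = 0.844, exact permutation, adjusted p = 0.047). It also passed without young replicate 7 (r = 0.706, exact permutation p = 0.049), where no other pair kept 6 arrays and nothing was adjusted. That unadjusted p was no smaller than the 0.042 with all arrays. By Spearman the pair passed without aged replicate 1 or young replicate 4, 5 or 7 (rho 0.847, 0.903, 0.871 and 0.847). Their unadjusted exact permutation p-values were 0.0125, 0.0054, 0.0085 and 0.0125, against 0.014 with all arrays. When an array was left out, fewer pairs kept 6 arrays, so the adjustment was over fewer tests. With blanks at 0.01, r over the 13 arrays was 0.413 (permutation p = 0.16, adjusted p = 0.77).

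Birc2 and Birc3 shared 6 arrays, 5 of them young, and had r = 0.844 (exact permutation p = 0.042, adjusted p = 0.15) and rho = 0.721 (exact permutation p = 0.12, adjusted p = 0.41). Both were dim on young replicates 1 and 2, at 0.02 to 0.03, and bright on young replicates 4 and 7, at 0.1 to 0.2. Aged replicate 2 stood off this line, with Birc2 at 0.06 and Birc3 at 0.02. With each value taken as the deviation from its age group's mean, r was 0.973 (exact permutation p = 0.0028, adjusted p = 0.019), the 1 pair that passed under that setting. The aged means came from replicates 2, 3 and 6 for Birc2 and 1, 2, 4 and 5 for Birc3, which share only replicate 2. That array was thus moved by values outside the pair, and r = 0.973 does not show co-variation within the aged group. Without young replicates 4 and 1 r was 0.762 over 4 arrays, and centring on the 15 probes gave 0.830 (exact permutation p = 0.044, adjusted p = 0.18). With blanks at 0.01, r over the 13 arrays was 0.123 (permutation p = 0.68, adjusted p = 0.80).

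The other pairs were weaker. Birc2 with Bfar had r = 0.557 and rho = 0.456, Birc6 with Bfar 0.514 and 0.464, and Birc3 with Birc6 0.437 and 0.406. Birc6 with Cflar (-0.384 and -0.328) and Naip5 with Bfar (-0.537 and -0.647) ran in opposite directions. Each of these 5 pairs shared 6 arrays, with exact permutation p-values for r from 0.25 to 0.49, adjusted 0.42 to 0.49, and for rho from 0.18 to 0.54, adjusted 0.41 to 0.54. Without the 2 arrays farthest from the median of the first gene, r over 4 arrays was 0.608, 0.488, 0.819, -0.464 and -0.012 in the order named. No pair had 6 arrays within 1 age group. The median r of the 7 pairs was 0.51, against 0.20 over 1949 pairs of tested probes, and 0.14 against 0.12 after centring on the 15 probes. All pairs share the beta-actin signal of each array.

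**Figure D3:**
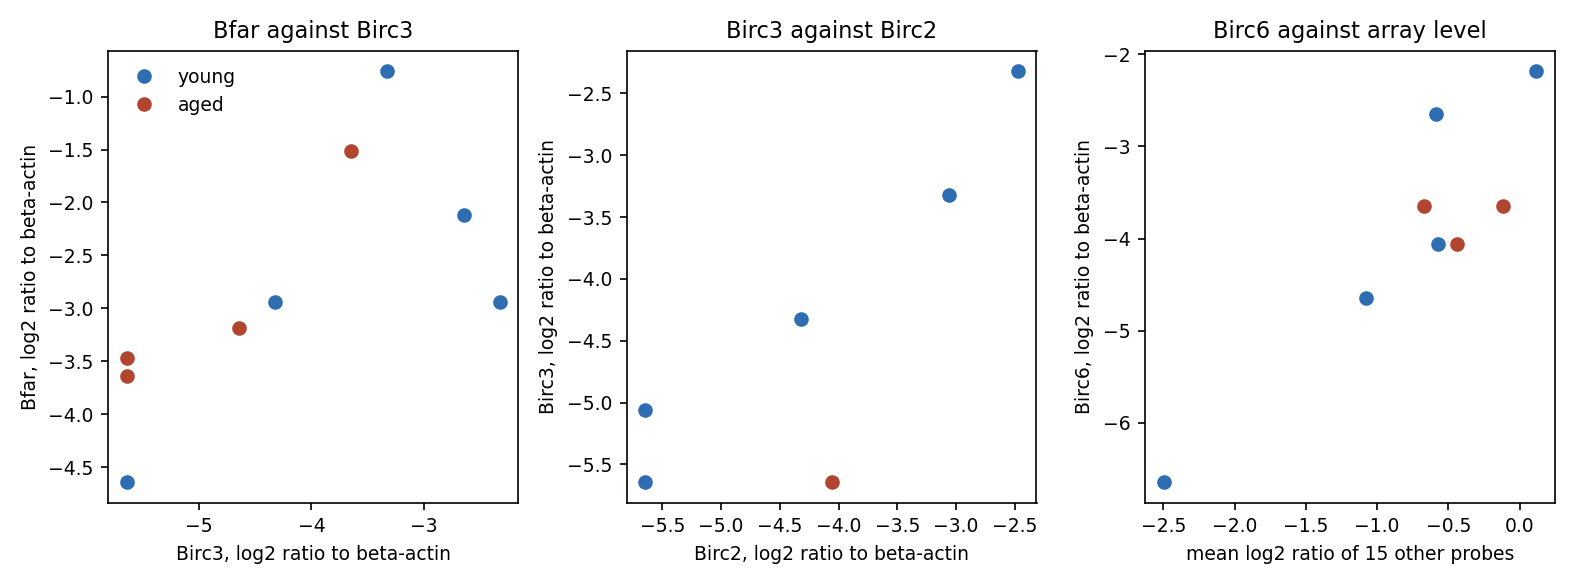
Log2 ratios to beta-actin of Bfar against Birc3 and of Birc3 against Birc2, and of Birc6 against the mean log2 ratio of the 15 other probes measured on all arrays. Points are arrays with both values, blue young and red aged; the point at lower left of the Birc6 panel is young replicate 1.

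Against the level of the array, a family of 6 correlations chosen after the values were seen, Birc6 had r = 0.905 over 8 arrays (exact permutation p = 0.0056, adjusted p = 0.033) and rho = 0.687 (exact permutation p = 0.067, adjusted p = 0.20). Without young replicates 1 and 7 r was 0.412, so the relation rested on those arrays. Naip5 ran the other way over 6 arrays, with r = -0.784 (exact permutation p = 0.078, adjusted p = 0.12) and rho = -0.971 (exact permutation p = 0.011, adjusted p = 0.067). Without its 2 farthest arrays its r was -0.762 over only 4 arrays. Bfar had r = 0.620 over 11 arrays (permutation p = 0.041, adjusted p = 0.12) and rho = 0.246 (permutation p = 0.46, adjusted p = 0.69). Without its 2 farthest arrays, young replicate 2 and aged replicate 5, its r was 0.588 over 9 arrays. Within the 6 young arrays it was 0.951, which was not tested. Young replicate 7, with the highest Bfar ratio, was left out of neither value. Birc2, Birc3 and Cflar had r of 0.669, 0.258 and -0.342 and rho of 0.446, -0.006 and -0.234 (permutation p-values for r, exact for Birc2 and Cflar, 0.069, 0.48 and 0.56, adjusted 0.12, 0.56 and 0.56; for rho 0.27, 1 and 0.61, adjusted 0.54, 1 and 0.74). Their r became -0.272, -0.284 and -0.096 without the 2 farthest arrays, over 6, 8 and 5 arrays. Birc3 had r = 0.642 within the 6 young arrays, which was not tested.

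The probes most like each gene are given as a description, by Pearson r of log2 ratios over at least 8 shared arrays. These are the highest 2 of 14 named candidates for Birc2, 30 for Birc3, 20 for Birc6 and 39 for Bfar. For Birc2 they were Casp9 (r = 0.861, 8 arrays) and Gadd45a (0.785, 8 arrays). For Birc3 they were Bfar (0.683, 9 arrays) and Pycard (0.627, 9 arrays). For Birc6 they were Mcl1 (0.95, 8 arrays) and Bcl2 (0.922, 8 arrays), both anti-apoptotic Bcl-2 proteins, and for Bfar they were Bcl2a1d (0.766, 10 arrays) and Bcl2 (0.722, 11 arrays). After centring on the 15 probes these 8 values ran from 0.229 (Birc2 with Gadd45a) to 0.688 (Birc6 with Bcl2). Casp9, Gadd45a and Bcl2 are themselves among the 15, so each was centred on a mean that holds it, which distorts their values. For the partners outside the 15, the values ran from 0.533 (Birc6 with Mcl1) to 0.674 (Birc3 with Bfar). Naip5 and Cflar had too few values for this.

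The other genes of the inhibitor of apoptosis family on the array, Xiap, Birc5 and Naip2, had only 2 aged values each and were not tested for level. Xiap, the caspase inhibitor of the family, had 0.04 and 0.03 on aged replicates 4 and 6 and 0.01, 0.04, 0.04 and 0.06 on young replicates 1, 2, 5 and 7. Birc5 (survivin), which also acts in cell division, had 0.32 and 0.04 on aged replicates 3 and 4 and 0.04, 0.14, 0.17, 0.03 and 0.25 on young replicates 2, 4, 5, 6 and 7. Naip2 had 0.04 and 0.01 on aged replicates 4 and 5 and 0.04, 0.04 and 0.02 on young replicates 1, 2 and 7. Each was seen on 2 of 6 aged arrays, against 4, 5 and 3 of 7 young ones (Fisher's exact p = 0.59, 0.29 and 1, adjusted p = 1 each).

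Of a list of 20 genes around these 6 (caspases, TNF receptor and Fadd adaptors, apoptosome genes and other inhibitors), 12 were on the array and 8 were tested. Of the 8, 1 rose in aged arteries, Tnf, the cytokine whose receptor recruits Birc2 and Birc3 (0.223 ± 0.050 aged, 0.0617 ± 0.0360 young, SD, n = 6 each, log2 difference 2.06, SE 0.51, adjusted p = 0.031 by limma), and 0 fell. Casp9, the caspase of the mitochondrial pathway, had 1.61 (adjusted p = 0.23 by limma), and Traf2, the adaptor that holds Birc2 and Birc3, had 0.51 (adjusted p = 0.89 by limma). Fadd, the adaptor for which Cflar competes, had -0.66 (adjusted p = 0.86 by limma), and Casp8 had 0.03 (adjusted p = 0.98 by limma). Casp6, Traf1 and Apaf1 were at 0.86, 0.95 and -0.25. The median of the 8 was 0.69, with 6 of 8 higher, beside 40 of 70 over all tested probes. Casp8, Casp9 and Traf1 are themselves among the 15 probes, so centring on those sets each against a mean that holds it. With reference centring the median of the 8 was 0.44, with 5 of 8 higher beside 29 of 70. With centring on the 15 probes it turned to -0.05, with 3 of 8 higher beside 13 of 70. Tnf did not pass under either of those (0 of 8), nor with a block on the replicate number, with blanks at 0.01, by the exact permutation test over 70 probes, without aged replicate 1, 2, 3, 4 or 6, or without young replicate 3, 5 or 6.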

How the data were processed

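Total RNA of rat coronary arteries was measured on 13 single-channel arrays. The deposited value table holds linear ratios; that the authors divided each array by its mean beta-actin signal was read from the values, since the 2 Actb spots average 1 on every array. The scanner, background correction and reason for blanks remain unstated (not given in the sources used here). Columns of other samples: 0. The age fit used limma 3.58.1 in R 4.3.3 (lmFit, eBayes, two-sided) on log2 ratios without a pseudocount, blanks missing, over the 70 gene probes with at least 3 values in each group, with Benjamini-Hochberg adjustment over all 70 and a threshold of 0.05. Detection used Fisher's exact test over 96 gene probes. Correlations used exact permutations under 10 arrays and 100000 resamples otherwise. The fit and the permutation test were run on simulated normal values. These had no array-level shifts, shared denominator or rounding, so the runs do not cover those features. Alternatives covered scaling, blanks, a pseudocount of 0.02, linear ratios, filters, another prior, an exact permutation test, a block on the replicate number, and leaving out each array in turn. Named are the 6 genes, the reference genes, the pathway list and the 2 named probes most like each gene; Xiap, Birc5 and Naip2 were described after their values were seen, the first 2 also being on the pathway list. The genes, lists and tests were chosen with earlier results of these data known.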

Additional observations from a re-analysis of the deposited data

Results flagged for a closer look

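Bfar on young replicate 7 had a ratio of 0.59, while the next highest young array had 0.23. That gap was 0.655 of the range of the 6 young values, above the limit of 0.625. On the log2 scale, used in the age comparison and tried after seeing the data, the gap was 0.350 of the range and under that limit, so the mark depends on the scale. In this search 7 groups of values were examined, and chance marks about 1 group in 20. Its array level, 0.12, was the highest among young arrays, as was its ratio of Birc6 (0.22). The Bfar age difference was 0.44 on the log2 scale without it, against 0.05 with it.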

How the results depend on the processing

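None of the 6 genes passed under any of the 26 alternatives. The lowest adjusted p was 0.18 by limma, for Birc3 with 15-probe centring. All 6 were tested except under the 25th percentile filter (5 tested) and the replicate block, where Naip5 and Cflar had no test. Leaving out both young replicates 1 and 2 was chosen after seeing the data. The directions of Birc2, Birc6 and Bfar turned with 15-probe centring (-0.59, -0.26 and -0.49), with blanks at 0.01 (-0.33, -0.43 and -0.053), on linear ratios (-0.0047, -0.025 and -0.0097) and without both those arrays (-0.57, -0.40 and -0.34). Bfar also turned with reference centring (-0.20) and Cflar with blanks at 0.01 (0.065). With 1 array left out, Birc6 ran from -0.40 to 0.72 and Bfar from -0.34 to 0.44, while Birc2, Birc3, Naip5 and Cflar did not turn. Naip5 was below the 25th percentile of mean ratio and has no value under that filter. The cause of these turns was not tested.

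The replicate numbers were not taken to pair the arrays in the main fit, though the values do not settle whether they do. Same-numbered arrays correlated above 0.1 in 3 of 6 pairs (r from -0.20 to 0.36). Among the 7 young arrays, the same-numbered one was the best match for 3 of 6 aged arrays. With the replicate block the differences were 0.79 (Birc2), -0.98 (Birc3), 2 (Birc6) and 0.24 (Bfar), with adjusted p-values from 0.50 to 0.89 by limma. Those of Birc2 and Birc6 rest on only 2 complete pairs each, and those of Birc3 and Bfar on 4 each. Naip5 (-2.32) and Cflar (-1.17) had 1 complete pair each and so no test.

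Detection, as percent aged minus percent young, turned where values under 0.05 also counted as blank: 7.14 for Birc2 and for Birc6, -11.9 for Naip5, -26.2 for Cflar and 11.9 for Bfar. For Naip5 it was -9.52 with 0.01 counted as blank. With 1 array left out it ran from -2.86 to 17.1 for Naip5 and from -16.7 to 14.3 for Bfar. Every adjusted Fisher p was 1.

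By Pearson, the number of pairs that passed was 1 on deviations from the age means (Birc2 with Birc3, r = 0.973, with 1 aged array) and 0 to 1 with 1 array left out. The latter was Birc3 with Bfar without young replicate 4 (r = 0.844, exact permutation, adjusted p = 0.047) or 7 (r = 0.706, exact permutation p = 0.049). Fewer pairs kept 6 arrays in both, and without young replicate 7 no other pair did, so that p was not adjusted. By Spearman this pair also passed without aged replicate 1 (exact permutation, adjusted p = 0.038) and young replicate 5 (adjusted p = 0.034), again over fewer pairs. With blanks at 0.01, r was lower for Birc2 with Birc3 (0.123) and Birc3 with Bfar (0.413), and turned for Birc2 with Bfar (-0.037), Birc6 with Cflar (0.22) and Naip5 with Bfar (0.18), and Birc3 with Birc6 turned with 15-probe centring (-0.18). Pairs on 6 arrays have no value without any of these.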
